A study of Mus musculus with 23 samples.

Results

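Cyclic nucleotide phosphodiesterases are the enzymes that hydrolyse cAMP and cGMP, and 6 of their genes, Pde3b, Pde7a, Pde4b, Pde4d, Pde2a and Pde8a, were followed across 9 sorted groups of mouse CD4+ T cells. The members were chosen by name, with their levels in Foxp3+ or CD25+ cells and in the partner cells of the same hosts already known, so those differences are given as a description. Their levels in the other groups were in view too, and no p-value is given for a member. All 21 probe sets annotated to the 6 genes were examined, of 34945 named probe sets and 18193 genes on the array. The array covers 23 listed genes with a phosphodiesterase name in all, subunits included.

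cAMP is made by adenylyl cyclases when a receptor coupled to the stimulatory G protein is occupied, and it restrains T cell receptor signalling through protein kinase A. Phosphodiesterases set how long and where in the cell the signal lasts. Families 4, 7 and 8 degrade cAMP alone, whereas families 2 and 3 degrade both cAMP and cGMP, family 2 being stimulated and family 3 inhibited by cGMP. Regulatory T cells (Treg), which carry the transcription factor Foxp3, are known to hold and pass on high amounts of cAMP, and in mice Foxp3 is known to repress Pde3b.

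RNA of sorted cells was hybridised to 23 Affymetrix M430v2 arrays, and every group came from male mice aged 6 to 10 weeks. LP Treg and LP Tconv were the Foxp3-GFP+ and Foxp3-GFP- CD4+ cells of the small intestinal lamina propria of C57BL/6-Foxp3/GFP reporter mice, with 2 arrays each. Homeostatic Foxp3+ and Foxp3- cells, 3 arrays each, were recovered by GFP from the spleen and lymph nodes of NOD RAG-/- hosts on day 14 after intravenous transfer of GFP-negative CD4+ cells of BDC2.5/NOD mice, a T cell receptor transgenic line. DEC CD25+ (3 arrays) and DEC CD25- (4 arrays) cells came from Balb/c hosts given CD4+CD25- cells of HA6.5/Thy1.2/RAG-/-/Balb/c mice and 1 injection of DEC-HAPeptide at 50 ng per mouse, and were sorted 3 weeks later by CD25, not by Foxp3. The remaining groups, with 2 arrays each, were Foxp3-GFP+ Treg from the peripheral lymph nodes (LN) of C57BL/6-Foxp3/GFP mice, split into CD103+Klrg1+, CD103+Klrg1- and CD103-Klrg1- cells. All sorts took CD3+ cells negative for B220, CD8a and CD11b/c. Both transfer systems follow cells of T cell receptor transgenic donors, of which only the HA6.5 donors are given as RAG-/-. The RAG-/- hosts lack T and B cells but keep NK and other innate lymphoid cells.

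Each LP or LN array held RNA pooled from 4 to 6 mice, each homeostatic array from 2 to 3 and each DEC array from 5 to 10, so the spread between arrays is that between pools. Levels are log2 of the deposited intensity, with the standard deviation (SD) between arrays, and differences are log2 fold changes with the standard error (SE) of the model. Foxp3 stood at 11.21 in LP Treg and 4.65 in LP Tconv, at 10.42 in homeostatic Foxp3+ and 4.76 in Foxp3- cells, and at 10.47 in DEC CD25+ and 7.97 in CD25- cells. DEC CD25- cells thus held more Foxp3 RNA than the other partner groups. Il2ra, the CD25 gene, read 9.73 to 10.49 in DEC CD25+ and 5.94 to 7.15 in CD25- cells. In LN Treg, Itgae, the CD103 gene, read 8.41 and 7.77 in CD103-Klrg1- and 12.59 to 13.48 in CD103+ subsets. Klrg1 read 14.14 and 14.18 in CD103+Klrg1+ and 7.53 to 8.95 in the other LN subsets. T cell identity genes, 9 of 9 above the median of all values in every group, averaged 9.53 to 11.77 per array. Replicates 3 and 4 of DEC CD25- were dim, with median intensities of 68.5 and 63.7 against 75.5 to 81.1 on the others. On that replicate 3 the Gapdh signal at the 3′ end exceeded that at the 5′ end by 6.59 on the log2 scale, against 1.63 to 3.92 on the others. Replicate 2 of LN CD103+Klrg1+ stood apart from replicate 1 in markers of other cells, with means of 8.59 and 7.90 for 9 B cell genes, 7.88 and 6.77 for 7 CD8 T and NK genes and 6.96 and 6.25 for 15 myeloid and dendritic genes. Fewer cells of a type and less RNA per cell cannot be told apart in such samples.

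All 6 genes passed the filter on low values (a mean above 6.27 in at least 1 group), and none of the standing probe sets, those with the highest mean of each gene, dropped below 6.27 on any array. Pde3b and Pde7a varied most: their group means spanned 4.79 and 4.12 on the log2 scale, against 1.35 for Pde8a and 1.91 to 1.99 for Pde4b, Pde4d and Pde2a. The low end of the Pde8a span was DEC CD25- cells, where both dim arrays read low.

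**Figure D1:**
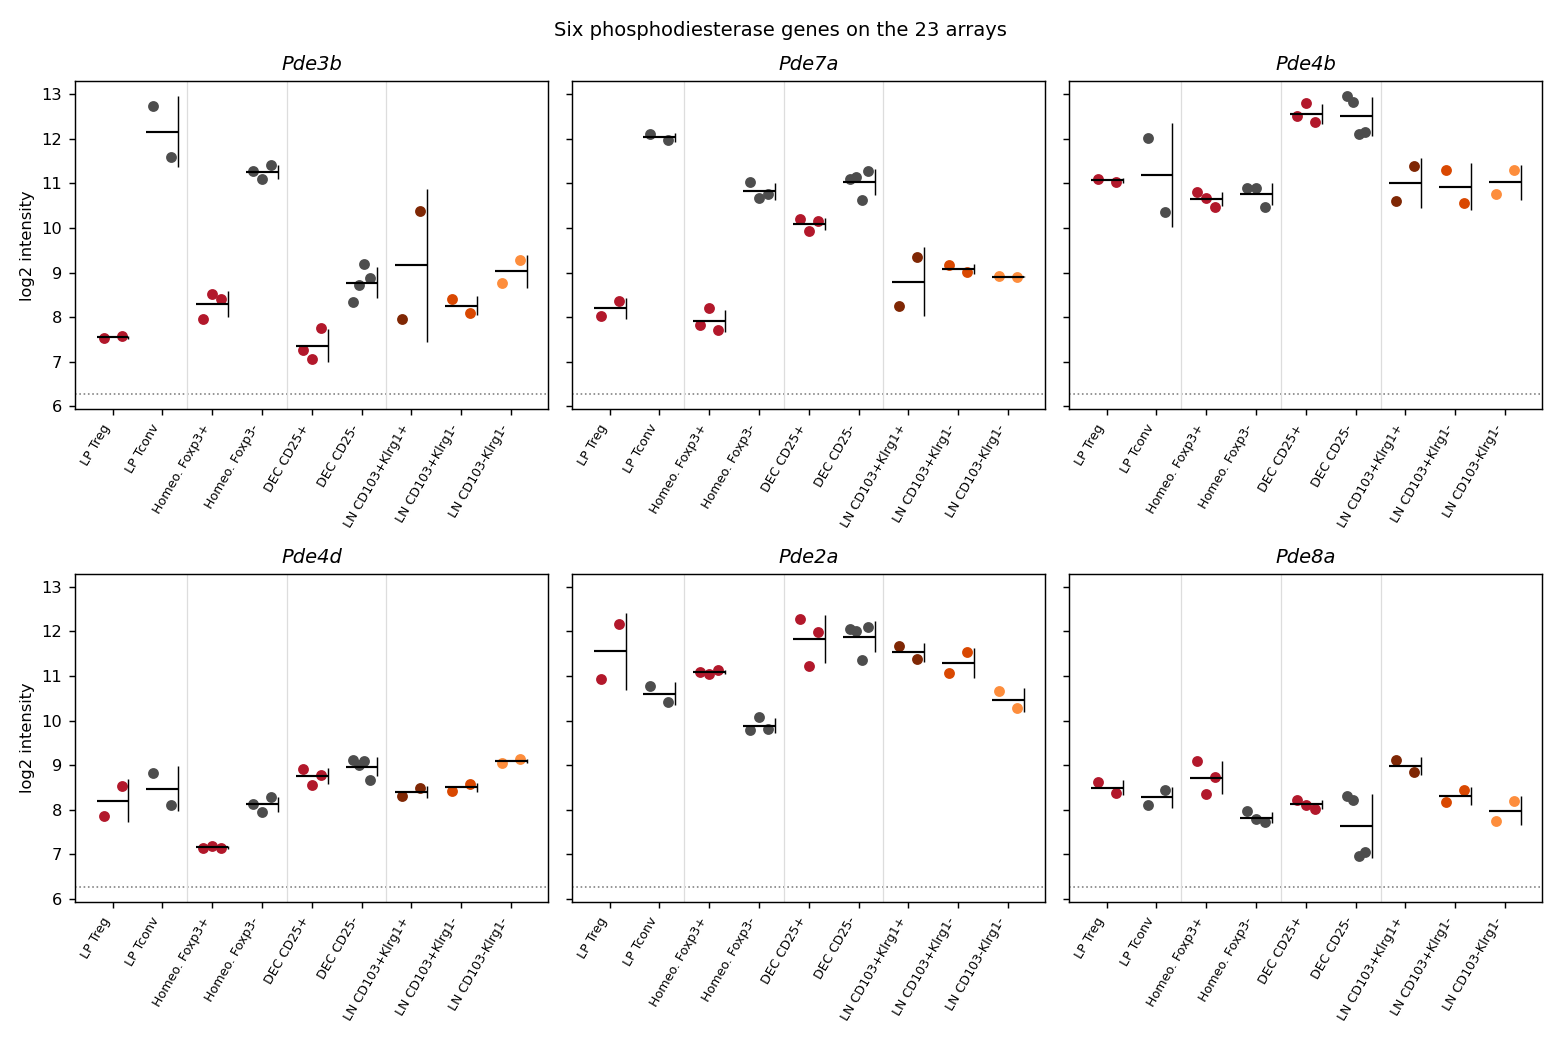
Log2 intensity of the probe set that stands for each of the 6 phosphodiesterase genes on the 23 arrays, by group; points are arrays, horizontal bars group means and vertical bars 1 SD, and the dotted line is the filter at 6.27. Pde3b and Pde7a lie lower in LP Treg and homeostatic Foxp3+ cells than in LP Tconv and homeostatic Foxp3- cells with no overlap of arrays, whereas Pde4b is high in both DEC groups.

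Pde3b encodes the cGMP-inhibited phosphodiesterase best known for the antilipolytic action of insulin in fat cells. Its single probe set, 1433694_at, read 7.52 and 7.58 in LP Treg, against 12.72 and 11.59 in LP Tconv. In homeostatic Foxp3+ cells it read 7.96, 8.52 and 8.40, against 11.27, 11.09 and 11.40 in Foxp3- cells. In DEC CD25+ cells it read 7.26, 7.06 and 7.76, against 8.33, 8.72, 9.19 and 8.87 in CD25- cells. The Foxp3+ or CD25+ arrays lay below every partner array in each of the 3 systems. The log2 fold change was -4.61 ± 0.53 (SE) in LP cells, a level 24.4-fold lower in LP Treg. It was -2.96 ± 0.43 in homeostatic cells, 7.80-fold lower in Foxp3+ cells. The DEC difference was the smallest of the 3, at -1.41 ± 0.40 or 2.66-fold lower in CD25+ cells, and at -1.16 ± 0.49 without both dim arrays. The Foxp3+ and CD25+ means of the 3 systems lay between 7.36 and 8.29, whereas the partners were further apart: DEC CD25- cells averaged 8.78 ± 0.35 (SD, n = 4) against 11.25 ± 0.16 in homeostatic Foxp3- cells (SD, n = 3) and 12.16 ± 0.80 in LP Tconv (SD, n = 2).

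Pde7a encodes a cAMP-specific enzyme of high affinity that is abundant in T cells and insensitive to rolipram. The probe set that stands for it, 1458218_s_at, read 8.03 and 8.36 in LP Treg, against 12.09 and 11.96 in LP Tconv. In homeostatic Foxp3+ cells it read 7.82, 8.20 and 7.72, against 11.02, 10.67 and 10.76 in Foxp3- cells. In DEC CD25+ cells it read 10.19, 9.92 and 10.15, against 11.09, 11.15, 10.62 and 11.28 in CD25- cells. Here too the arrays of the partner groups did not overlap in any system. The log2 fold changes were -3.83 ± 0.28 (14.2-fold lower) in LP Treg, -2.91 ± 0.23 (7.50-fold lower) in homeostatic Foxp3+ cells and -0.95 ± 0.22 (1.93-fold lower) in DEC CD25+ cells. Unlike Pde3b, Pde7a stayed high in both DEC groups, with 10.09 ± 0.14 (SD, n = 3) in CD25+ cells standing 1.00 above LN Treg CD103+Klrg1-, the next group in the order of levels.

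The other 6 Pde7a probe sets allow a check within the gene. All 7 were lower in LP Treg, by log2 fold changes of -3.83 to -2.52, and all 7 were lower in homeostatic Foxp3+ cells, by -2.91 to -1.18. Over the 9 group means they correlated with 1458218_s_at at r = 0.88 to 0.98, as a description over groups that share arrays and depth. In the DEC cells they disagreed in sign, with 4 lower and 3 higher in CD25+ cells, over a range of -0.95 to 0.20, and their mean gave -0.27. Several probe sets read low on DEC CD25- replicate 3, the array with the wide Gapdh ratio. There 1450933_at read 5.44, against 9.62, 9.57 and 7.92 on the other CD25- arrays, and 1423314_s_at read 6.76, against 9.81, 10.02 and 8.24. On the same array 1458218_s_at read 10.62, against 11.09, 11.15 and 11.28, so the probe sets of 1 gene dropped there by unequal amounts, and the part of RNA quality in this was not tested.

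**Figure D2:**
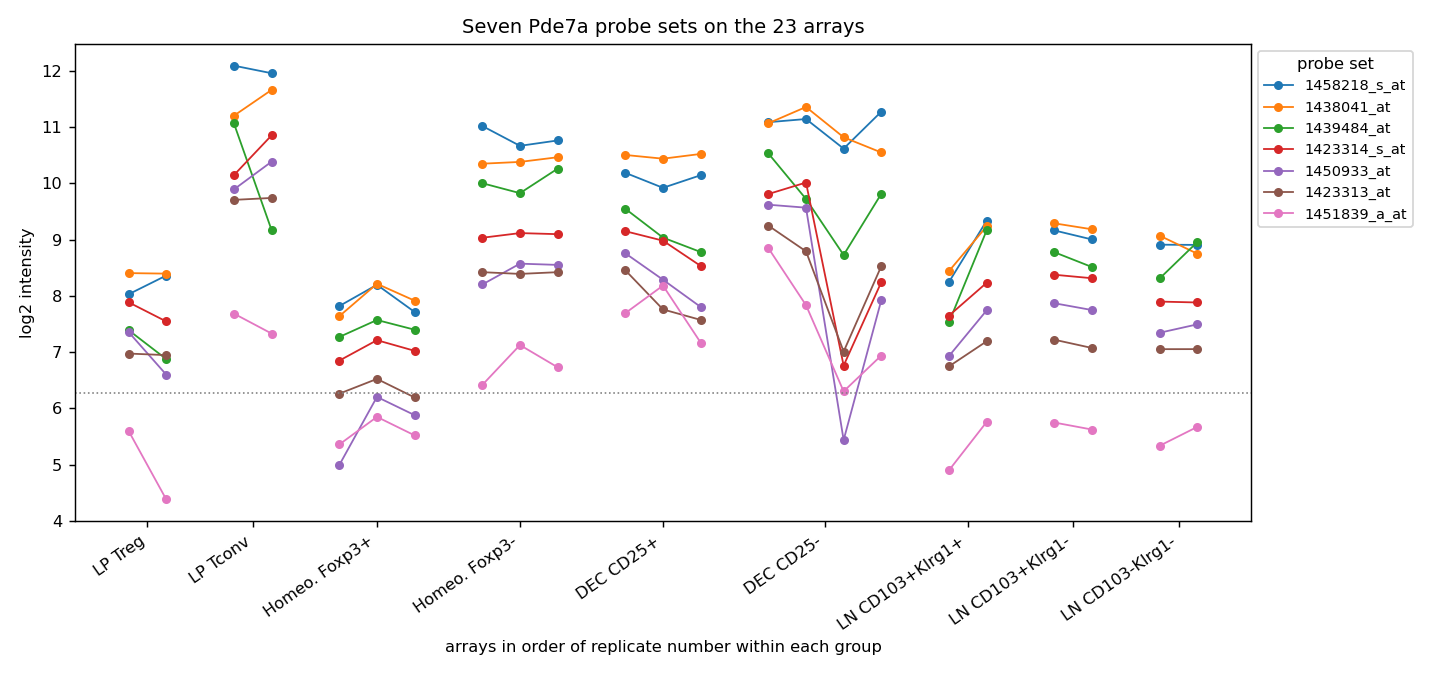
Log2 intensity of the 7 Pde7a probe sets on the 23 arrays, ordered by replicate within each group; each line joins the arrays of a group for 1 probe set, and the dotted line is the filter at 6.27. All 7 are lower in LP Treg and homeostatic Foxp3+ cells than in LP Tconv and homeostatic Foxp3- cells, and 1450933_at drops to 5.44 on replicate 3 of DEC CD25-.

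Pde4b encodes a rolipram-sensitive, cAMP-specific enzyme that is drawn to the T cell receptor complex on stimulation. Both DEC groups stood above the other 7 groups, which overlapped their neighbours in the order of levels. Its standing probe set, 1422474_at, read 12.51, 12.80 and 12.37 in DEC CD25+ cells, against 12.95, 12.81, 12.11 and 12.14 in CD25- cells. In LP Treg it read 11.11 and 11.03, against 12.02 and 10.36 in LP Tconv, and in homeostatic Foxp3+ cells 10.80, 10.67 and 10.47, against 10.89, 10.90 and 10.47 in Foxp3- cells. Partner groups overlapped in all 3 systems, with log2 fold changes of -0.12 ± 0.43 in LP, -0.10 ± 0.35 in homeostatic and 0.05 ± 0.33 in DEC cells. The LP value rested on the wide LP Tconv pair and was 0.71 without LP Tconv replicate 1 and -0.95 without replicate 2. The DEC value was -0.19 after quantile normalization. Of the 6 Pde4b probe sets, 3 passed the filter. Among these, 1422473_at differed by -1.10 ± 0.43 in LP cells, with 7.91 and 7.69 in LP Treg against 8.43 and 9.36 in LP Tconv, and those arrays did not overlap. On 1422474_at the lowest DEC array, at 12.11, still lay above the highest array of any other group, at 12.02.

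Pde4d encodes a second rolipram-sensitive cAMP phosphodiesterase, and 1 of its 2 probe sets, 1435280_at, passed the filter. It read 7.15, 7.20 and 7.14 in homeostatic Foxp3+ cells, against 8.13, 7.96 and 8.30 in Foxp3- cells, with no overlap and a log2 fold change of -0.97 ± 0.20 (1.95-fold lower). Homeostatic Foxp3+ cells had the lowest mean of the 9 groups and lay below all other arrays. LP Treg read 7.87 and 8.54, against 8.83 and 8.12 in LP Tconv, and DEC CD25+ cells 8.91, 8.56 and 8.79, against 9.12, 9.01, 9.09 and 8.66 in CD25- cells. Those pairs of groups overlapped, with log2 fold changes of -0.27 ± 0.24 and -0.21 ± 0.18. The 250 bases before 1 annotated start of Pde4d are shown because this gene separated the homeostatic groups, and Foxp3 is a forkhead factor; the capitals mark the 1 match to TGTTTAC or TGTTTAT (both strands searched), which begins 221 bases before the start (RefSeq, GRCm38.p6, chr13:108653927-108654176, plus strand).
Pde4d: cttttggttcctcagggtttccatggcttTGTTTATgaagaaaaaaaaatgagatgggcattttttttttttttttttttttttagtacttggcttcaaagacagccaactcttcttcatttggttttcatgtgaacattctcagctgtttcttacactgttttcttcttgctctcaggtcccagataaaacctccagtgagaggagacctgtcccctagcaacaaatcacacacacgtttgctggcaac
Such a match is held by 7.1% of 32851 mouse promoters of the same length and by 2 of the 11 starts listed for Pde4b, Pde4d, Pde2a and Pde8a. The other start with a match is of Pde4b, whose homeostatic groups overlapped. Pde2a and Pde8a also separated the homeostatic groups, and their listed starts hold no match. A match is no measurement of binding.

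Pde2a encodes the cGMP-stimulated phosphodiesterase and ran the other way. Its standing probe set, 1447707_s_at, read 11.09, 11.05 and 11.14 in homeostatic Foxp3+ cells, against 9.78, 10.08 and 9.81 in Foxp3- cells. In LP Treg it read 10.94 and 12.17, against 10.78 and 10.42 in LP Tconv. In DEC CD25+ cells it read 12.27, 11.22 and 11.98, against 12.04, 12.02, 11.35 and 12.10 in CD25- cells. The first 2 pairs of groups did not overlap, with log2 fold changes of 1.21 ± 0.30 (2.31-fold higher) and 0.96 ± 0.36 (1.94-fold higher). The LP value depended on 1 array, being 0.34 without LP Treg replicate 2 and 1.57 without replicate 1. The DEC groups overlapped, at -0.05 ± 0.28. All 3 Pde2a probe sets were higher in LP Treg (0.22 to 0.96) and in homeostatic Foxp3+ cells (0.26 to 1.21), and in DEC cells they disagreed in sign.

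Pde8a encodes a cAMP-specific enzyme of very high affinity. Its standing probe set, 1418406_at, read 9.09, 8.36 and 8.73 in homeostatic Foxp3+ cells, against 7.96, 7.78 and 7.73 in Foxp3- cells, with no overlap and a log2 fold change of 0.90 ± 0.30 (1.86-fold higher). LP Treg read 8.62 and 8.38, against 8.12 and 8.45 in LP Tconv, which overlapped at 0.22 ± 0.37. DEC CD25+ cells read 8.23, 8.11 and 8.02, against 8.30, 8.23, 6.96 and 7.06 in CD25- cells. The 2 low CD25- values were those of the dim arrays, and the DEC log2 fold change of 0.48 ± 0.28 turned to -0.15 ± 0.20 without them. The second probe set, 1418407_at, was also higher in the Foxp3+ or CD25+ cells of all 3 systems (0.22 to 0.31), although its group means hardly followed those of the first (r = 0.09 over 9 groups). The 250 bases before 1 annotated start of Pde8a are shown because its level separated the homeostatic groups and it degrades the nucleotide that acts through the cAMP response element; the capitals mark TGACG, the core of the cAMP response element, searched on both strands and found once, 84 bases before the start (RefSeq, GRCm38.p6, chr7:81213015-81213264, plus strand).
Pde8a: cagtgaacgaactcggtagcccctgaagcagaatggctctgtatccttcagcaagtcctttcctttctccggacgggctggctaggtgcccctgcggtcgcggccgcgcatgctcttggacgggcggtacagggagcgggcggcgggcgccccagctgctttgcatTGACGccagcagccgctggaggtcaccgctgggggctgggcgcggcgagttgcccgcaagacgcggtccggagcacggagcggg
This core is present in 17.8% of the 32851 promoters and in 2 of the 11 starts of the 4 genes, the other being a start of Pde4b. The whole element TGACGTCA is present in 1.55% of the promoters and in 0 of the 11 starts.

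Counted over the 6 genes, 4 were lower and 2 higher in the Foxp3+ or CD25+ cells of each system, but not the same genes. The higher 2 were Pde2a and Pde8a in LP and homeostatic cells, and Pde4b and Pde8a in DEC cells. Differences smaller than their SE were those of Pde4b in all 3 systems, Pde8a in LP cells and Pde2a in DEC cells. Pde8a in DEC cells changed sign without both dim arrays. Arrays of the partner groups did not overlap for 3 genes in LP cells, 5 in homeostatic cells and 2 in DEC cells, where 30.9%, 22.3% and 5.46% of 12516 tested genes did not overlap. By adjusted p, 2.7%, 1.76% and 0.495% of those genes were called in these comparisons. With replicate numbers as a block the calls were 480 in homeostatic and 139 in DEC cells, against 220 and 62 without it. The DEC calls split into 50 higher and 12 lower, or 44 and 39 after quantile normalization and 22 and 31 without both dim arrays. Because the members were chosen with these differences known, nothing is read from their counts. The median log2 fold change of the 6 genes was -0.19 in LP, -0.54 in homeostatic and -0.13 in DEC cells, beside -0.01, -0.03 and 0.16 over all tested genes. The DEC median of all genes depended on scaling and was -0.05 after quantile normalization, under which Pde3b stood at -1.71, Pde7a at -1.21, Pde4d at -0.52, Pde2a at -0.29 and Pde8a at 0.27. In the homeostatic groups, whose 6 arrays carried myeloid genes, the 15 myeloid and dendritic markers summed to intensities of 3168 to 10360 in Foxp3+ and 5279 to 16388 in Foxp3- cells, with Csf1r at 10.43 and 11.19. In the DEC groups the same markers summed to 2650 to 4943 in CD25+ and 1423 to 3103 in CD25- cells, with a median log2 fold change of 0.63 over the 14 tested. Of these, limma called 0 and 5 stood at an unadjusted p under 0.05, beside 1852 of all 12516 tested genes. Lyz2, the lysozyme of macrophages, averaged 8.80 in CD25+ and 7.24 in CD25- cells. Among CD8 T and NK genes, Klrd1, an NK receptor subunit, fell in LP Treg (-2.80, adjusted p = 0.0438, limma) and in homeostatic Foxp3+ cells (-2.53, adjusted p = 0.0308), and the 7 markers averaged 6.26 to 6.60 in LP Treg against 7.09 to 7.38 in LP Tconv, and 7.79 to 8.56 in homeostatic Foxp3+ against 8.70 to 8.79 in Foxp3- cells. The part of these cells in the differences was not tested.

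**Figure D3:**
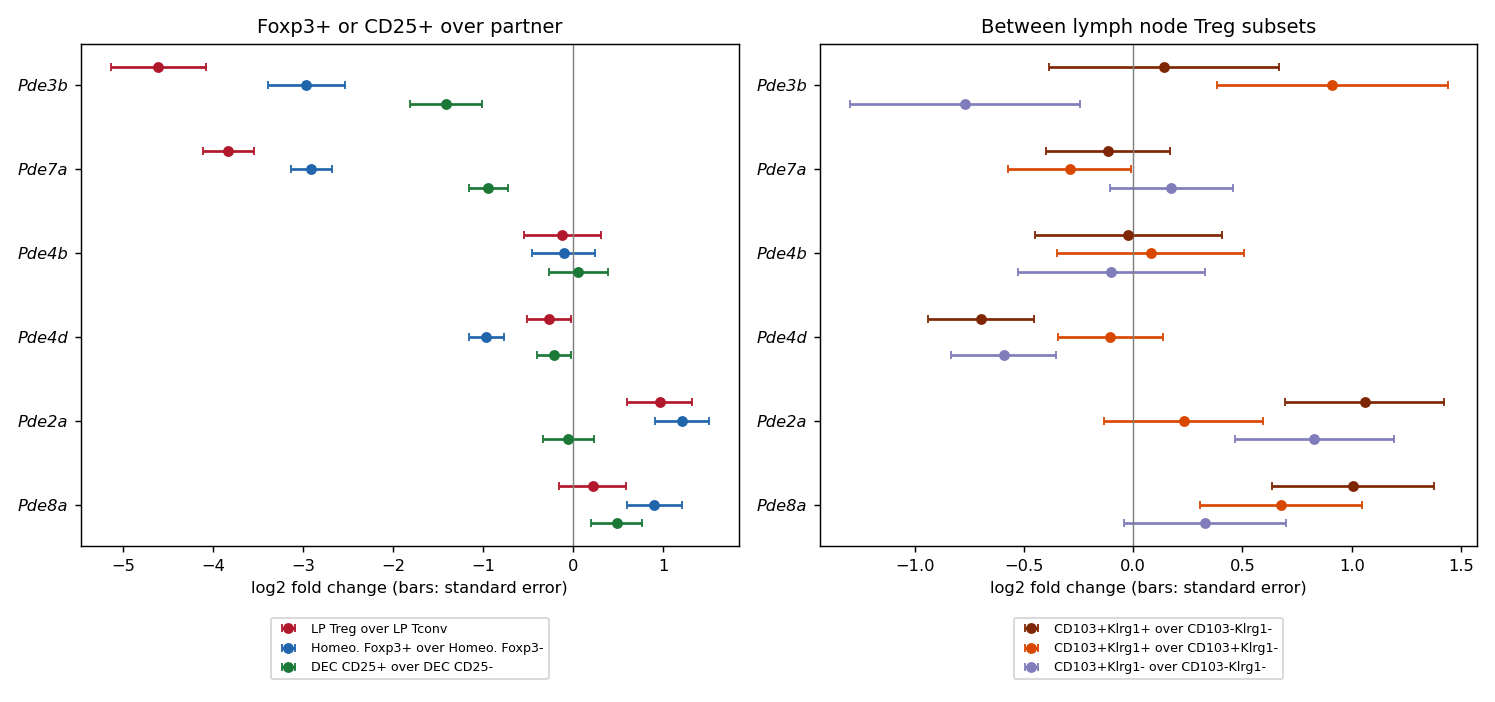
Log2 fold changes of the 6 phosphodiesterase genes with their SE, in Foxp3+ or CD25+ cells over their partners (left) and between LN Treg subsets (right). Pde3b and Pde7a lie at -4.61 and -3.83 in LP cells, and the differences between LN subsets lie between -0.77 and 1.06.

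The 3 LN Treg subsets were all Foxp3-GFP+ and were sorted apart by surface markers. CD103, the integrin chain that binds E-cadherin, and Klrg1, a killer lectin receptor, mark Treg of a more activated kind. For CD103+Klrg1+ over CD103-Klrg1-, CD103+Klrg1- over CD103-Klrg1- and CD103+Klrg1+ over CD103+Klrg1-, arrays did not overlap for 3, 4 and 1 of the 6 genes, beside 36.8%, 29.7% and 31% of all tested genes, so such a gap between pairs of arrays was common. By adjusted p, 2.1%, 0.0959% and 0.647% of all tested genes were called.

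The means of Pde2a and Pde8a were higher in both CD103+ subsets. Pde2a read 11.67 and 11.38 in CD103+Klrg1+, 11.05 and 11.53 in CD103+Klrg1- and 10.66 and 10.27 in CD103-Klrg1- Treg. The CD103-Klrg1- arrays were below all others, and the log2 fold changes against them were 1.06 ± 0.36 for CD103+Klrg1+ and 0.83 ± 0.36 for CD103+Klrg1- Treg. The other 2 Pde2a probe sets had the same sign but smaller differences. In the same order they were 0.71 ± 0.47 and 0.36 ± 0.47 for 1452202_at, and 0.16 ± 0.15 in both for 1447708_x_at. Pde8a read 9.12 and 8.85 in CD103+Klrg1+, 8.17 and 8.45 in CD103+Klrg1- and 7.75 and 8.21 in CD103-Klrg1- Treg. The CD103+Klrg1+ arrays lay above the rest, by a log2 fold change of 1.01 ± 0.37 over CD103-Klrg1- and 0.68 ± 0.37 over CD103+Klrg1-. Its second probe set, 1418407_at, gave 0.83 ± 0.23 over CD103-Klrg1- Treg.

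Pde4d ran opposite to both, with 8.30 and 8.50 in CD103+Klrg1+, 8.43 and 8.58 in CD103+Klrg1- and 9.06 and 9.13 in CD103-Klrg1- Treg. The CD103-Klrg1- arrays were above all others, and the log2 fold changes were -0.70 ± 0.24 for CD103+Klrg1+ and -0.59 ± 0.24 for CD103+Klrg1-.

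Pde3b, by contrast, had no settled order among the LN subsets, and for Pde7a the place of CD103+Klrg1+ Treg was unsettled. Pde3b read 7.95 and 10.37 in CD103+Klrg1+, 8.40 and 8.10 in CD103+Klrg1- and 8.77 and 9.28 in CD103-Klrg1- Treg. The CD103+Klrg1+ pair spanned all the rest, and its high array was the replicate 2 with more marker RNA of other cells, whose part was not tested. The log2 fold change over CD103-Klrg1- was 0.14 ± 0.53 with both arrays and -1.07 ± 0.42 without replicate 2. Over CD103+Klrg1- it was 0.91 ± 0.53 with both, -0.30 ± 0.42 without replicate 2 and 2.12 without replicate 1. Pde7a read 8.25 and 9.34 in CD103+Klrg1+, averaged 9.08 ± 0.11 (SD, n = 2) in CD103+Klrg1- and read 8.91 on both arrays of CD103-Klrg1- Treg. The difference of Pde7a between CD103+Klrg1+ and CD103-Klrg1- Treg was -0.12 ± 0.28, or -0.66 ± 0.27 without replicate 2 of CD103+Klrg1+. Pde4b ranged from 10.55 to 11.39 over the 6 LN arrays with all subsets overlapping.

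Ordered by group mean, the genes gave different sequences. Pde3b was highest in LP Tconv, then homeostatic Foxp3- cells, and these groups did not overlap each other or the next, LN CD103+Klrg1+ Treg at 9.16 ± 1.71 (SD, n = 2). From there down to LN CD103+Klrg1- Treg at 8.25 ± 0.22 neighbouring groups overlapped, and LP Treg (7.55 ± 0.04) and DEC CD25+ cells (7.36 ± 0.36) stood below. Pde7a was highest in LP Tconv (12.03 ± 0.09), followed without overlap by DEC CD25- and homeostatic Foxp3- cells, which overlapped each other, and then by DEC CD25+ cells. Its lowest groups were LP Treg (8.20 ± 0.24) and homeostatic Foxp3+ cells (7.91 ± 0.25), which overlapped. Pde2a was highest in the DEC groups and lowest in homeostatic Foxp3- cells (9.89 ± 0.16), apart from the next group, LN CD103-Klrg1- Treg, by 0.58. For Pde8a every neighbouring pair of groups overlapped, with LN CD103+Klrg1+ Treg highest (8.99 ± 0.19) and DEC CD25- cells lowest (7.64 ± 0.73), whose arrays did not overlap. That lowest place rested on both dim arrays, of which replicate 3 read 6.96, against 8.30 and 8.23 on replicates 1 and 2.

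Across the 9 group means, Pde3b correlated with Pde7a at r = 0.70 and with Pde2a at r = -0.74, and Pde7a with Pde8a at r = -0.61, as descriptions over 9 points that share the arrays. Among 6312 tested genes whose group means spanned at least 1 on the log2 scale, the patterns most like Pde3b were those of Slc16a5 (r = 0.97), a monocarboxylate transporter family gene, Particl (0.92) and Tnfsf14 (0.92), the TNF family ligand LIGHT. For Pde7a they were Orai2 (r = 0.98), a calcium channel subunit, Hvcn1 (0.93), a proton channel, and Hdac5 (0.92), a histone deacetylase. Pde4b followed Med6, Usp19 and Chd1 at r = 0.99 each. Pde2a was nearest to Birc2 (r = 0.91), Irf4 (0.85) and Sdcbp2 (0.85), Pde4d to Ldhb (0.91), Pdp1 (0.91) and Pkd1 (0.90), and Pde8a to Mtmr10 (0.94), Arnt2 (0.94) and Csrp2 (0.92). Over the 23 arrays every one of these correlations was lower, from 0.55 for Pde7a with Hdac5 to 0.95 for Pde4b with Chd1. Orai2 stood at 0.72 there and Slc16a5 at 0.83.

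Of 18 other genes listed by a phosphodiesterase name, subunits included, 17 had a probe set. Of these, 5 passed the filter: Pde10a, Pde11a, Pde1b, Pde4a and Pde6d, the last named for a subunit. None of the 5 was called by limma in any of the 6 comparisons. At an unadjusted p under 0.05 stood 2 in LP cells, 2 in DEC cells and 0 in the other 4 comparisons. Of all 12516 tested genes, 1090 in LP and 1852 in DEC cells stood under that threshold. Pde10a, a dual-specificity enzyme, differed by 0.40 ± 0.19 in LP Treg over LP Tconv. Pde11a, also dual-specific, differed by -0.57 ± 0.25 in LP cells and, with the opposite sign, by 0.59 ± 0.19 in DEC CD25+ over CD25- cells (adjusted p = 0.199, limma). Their median log2 fold changes lay between -0.09 and 0.09.

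The signalling chain around these enzymes was covered by 110 listed genes (the 18 included) that make, sense or respond to cyclic nucleotides, 74 of them tested. In LP cells 2 rose and 2 fell, in homeostatic cells 0 rose and 2 fell, and in DEC cells 1 rose and 0 fell. These are 5.41%, 2.7% and 1.35% of the 74, beside 2.7%, 1.76% and 0.495% of all tested genes. With replicate numbers as a block, 0 rose and 4 fell in homeostatic cells, Akap12 and Rgs16 being added, and 2 rose and 0 fell in DEC cells, Rgs10 being added. In LP cells 5 rose and 3 fell with the block, Crem, Nr4a3, Ptger2 and Ptger4 being added. Among LN subsets, 1 rose and 1 fell for CD103+Klrg1+ over CD103-Klrg1-, 1 rose and 0 fell for CD103+Klrg1+ over CD103+Klrg1-, and 0 passed for CD103+Klrg1- over CD103-Klrg1-. These are 2.7%, 1.35% and 0% of the 74, beside 2.1%, 0.647% and 0.0959% of all tested genes. For CD103+Klrg1- over CD103-Klrg1-, 5 of the 74 stood at an unadjusted p under 0.05 in the reported model, beside 255 of all 12516 tested genes. With the block, 5 rose and 1 fell for CD103+Klrg1+ over CD103-Klrg1-, Dusp1, Fos, Icam1 and Ptger4 being added. For CD103+Klrg1+ over CD103+Klrg1-, 2 rose and 1 fell with it, Fos and Ptger2 being added.

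Upstream, Vipr1, the VPAC1 receptor through which vasoactive intestinal peptide raises cAMP, had the same direction as Pde3b. It read 5.37 and 5.27 in LP Treg, against 7.73 and 9.17 in LP Tconv, and fell with a log2 fold change of -3.14 ± 0.39 (adjusted p = 8.10e-05, limma). In homeostatic Foxp3+ cells it read 5.83, 5.45 and 5.96, against 7.17, 6.80 and 7.30 in Foxp3- cells, and fell with a log2 fold change of -1.34 ± 0.32 (adjusted p = 0.0376, limma). The lower group means stood under the filter of 6.27, where background can hold up the value. Vipr1 passed that filter only through LP Tconv, homeostatic Foxp3- and DEC CD25- cells, so the filter favoured the falls that were tested. The homeostatic call was lost with any 1 of its 6 arrays left out, with adjusted p between 0.0558 and 0.178. It was also lost with the offset (-0.84, adjusted p = 0.113) and with the mean of the gene's probe sets (-0.63, adjusted p = 0.226). That mean gave -1.52 in LP cells, where the call was kept (adjusted p = 0.00209). Adcy6, an adenylyl cyclase inhibited by calcium, read 6.89 and 7.46 in CD103+Klrg1+, against 8.72 and 8.90 in CD103-Klrg1- LN Treg, and fell with a log2 fold change of -1.63 ± 0.30 (adjusted p = 0.00408, limma); the other 7 tested cyclases were not called in that comparison. Without replicate 1 of CD103+Klrg1+ or replicate 2 of CD103-Klrg1- its adjusted p was 0.124 and 0.0736, and over all alternatives 0.000426 to 0.124.

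Downstream, Akap7, which anchors protein kinase A, followed the LN subsets, with 9.41 and 9.44 in CD103+Klrg1+, 8.28 and 8.65 in CD103+Klrg1- and 7.87 and 8.06 in CD103-Klrg1- Treg. It rose by 1.46 ± 0.20 in CD103+Klrg1+ over CD103-Klrg1- (adjusted p = 0.000289, limma) and by 0.96 ± 0.20 over CD103+Klrg1- Treg (adjusted p = 0.0345, limma), the second call being lost with any of the 4 arrays left out. It also rose in LP Treg, with 8.32 and 8.14 against 7.14 and 7.29 in LP Tconv (log2 fold change 1.02 ± 0.20, adjusted p = 0.00749, limma), a call lost without LP Treg replicate 1 (adjusted p = 0.115). Cnga1, a cyclic nucleotide-gated channel subunit first known from rod cells, fell in LP Treg (-1.58 ± 0.24, adjusted p = 0.000647, limma) and in homeostatic Foxp3+ cells (-1.18 ± 0.20, adjusted p = 0.00227, limma). Its arrays read 4.86 and 5.27 in LP Treg, against 6.47 and 6.82 in LP Tconv, so the lower group was under the filter. Homeostatic Foxp3- arrays read 6.52, 6.00 and 6.66. Cnga1 passed the filter only through the means of LP Tconv (6.65) and homeostatic Foxp3- cells (6.39), both close to it. These are the higher groups of its calls, so the filter favoured the falls that were tested. Rgs16, which shortens signalling by inhibitory G proteins, rose in LP Treg with 9.13 and 9.97 against 7.62 and 7.35 in LP Tconv (2.07 ± 0.47, adjusted p = 0.0192, limma), a call lost without LP Treg replicate 2 or LP Tconv replicate 2 (adjusted p = 0.280 and 0.154). It had the opposite sign in homeostatic cells, with 7.92, 8.93 and 7.57 in Foxp3+ against 9.28, 10.06 and 9.13 in Foxp3- cells, which did not overlap (-1.35 ± 0.39, adjusted p = 0.107, limma). All 4 LP calls were lost when only the 4 LP arrays were fitted.

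The remaining lists held few called genes. Icam1, an adhesion ligand placed on the list of cAMP-responsive genes, read 9.88, 10.23 and 10.00 in DEC CD25+ cells, against 8.94, 9.31, 7.93 and 8.66 in CD25- cells, and rose by 1.32 ± 0.24 (adjusted p = 0.0153, limma). Without both dim CD25- arrays its difference was 0.91 (adjusted p = 0.0573), and the call was also lost without DEC CD25+ replicate 2 or replicate 3 (adjusted p = 0.136 and 0.0766). In the reported model, limma called none of the 8 tested protein kinase A subunits and inhibitors in the 6 comparisons. It also called none of the 9 tested genes of the CREB family and its coactivators. At an unadjusted p under 0.05 stood 1 kinase A gene, for CD103+Klrg1+ over CD103-Klrg1- Treg (Prkar2a, 0.80 ± 0.36), and of the CREB genes 1 in LP (Crem, 1.70 ± 0.74) and 3 in DEC cells, with Crtc3 at 0.89 ± 0.26. Of all 12516 tested genes, 852, 1090 and 1852 stood under that threshold in these comparisons. The prostaglandin E2 receptor gene Ptger4, not called in the reported model, differed by 0.87 ± 0.24 for CD103+Klrg1+ over CD103-Klrg1- LN Treg (adjusted p = 0.0749, limma). With the replicate block Ptger4 was called in that comparison, and Ptger4 and Crem were called in LP cells.

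**Figure D4:**
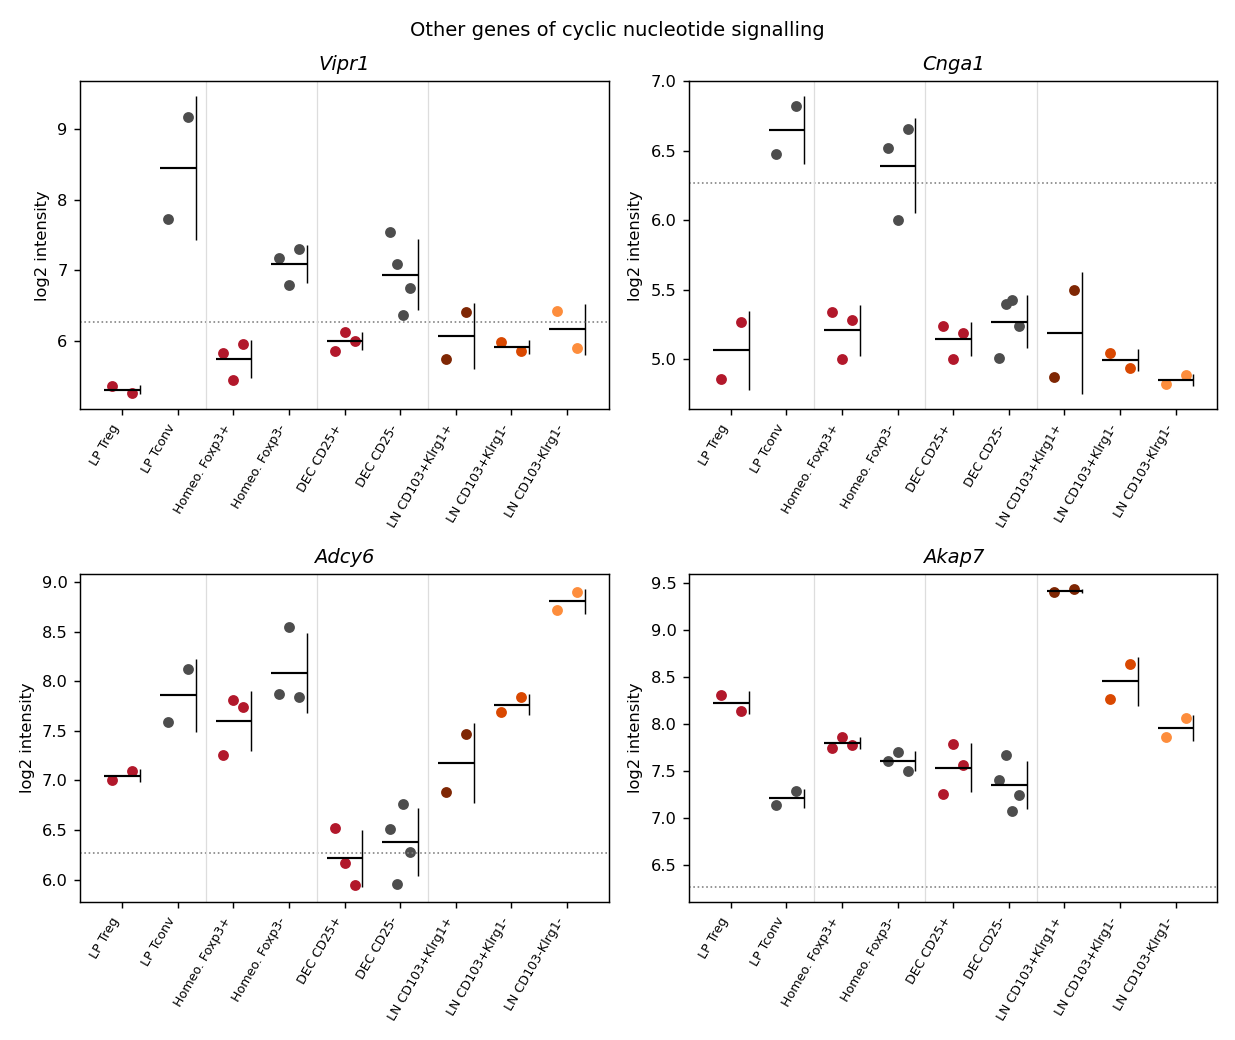
Log2 intensity of Vipr1, Cnga1, Adcy6 and Akap7 on the 23 arrays, by group, with points, bars and dotted line (filter at 6.27) as for the phosphodiesterases and a separate vertical scale in each panel. Vipr1 and Cnga1 lie under the filter in LP Treg and above it in LP Tconv, and Akap7 is highest in LN CD103+Klrg1+ Treg at 9.41 and 9.44.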

How the data were processed

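CD4+ T cells of 9 groups were profiled on 23 Affymetrix M430v2 arrays. The deposited values are intensities on a linear scale, made by the authors with RMA in GenePattern, per the series' design text; the genome build behind the array's design is not given in the sources used here. The median intensity per array was 63.7 to 81.1, and the number of arrays limits the precision.

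Values were taken as deposited and log2-transformed with no offset. Of 45101 probe sets, 64 were controls, 34945 had 1 gene symbol and 932 had several and were not named; 34741 of the named matched the gene table by Entrez ID. A gene was represented by the probe set with the highest mean (9010 of 18193 genes had several), and 12516 genes with a group mean above the median of all values (intensity 77.0, log2 6.27) were tested. Differences came from limma 3.58.1 in R 4.3.3 (lmFit and eBayes, 9 group means, 14 residual degrees of freedom), two-sided, with Benjamini-Hochberg adjustment per comparison at 0.05 over 6 comparisons; the script was tested on simulated data. Summaries used Python 3.11.15, pandas 2.3.3, numpy 2.4.6 and matplotlib 3.10.9.

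The members and lists were chosen with earlier results of these data known. Named are the 6 members with all probe sets, called genes of the cyclic nucleotide lists (where a list had none, up to 2 of smallest p), and the 3 genes most like each member by correlation of group means. Clone names were skipped. Members carry no p: they were compared over all 9 groups when chosen, so tests planned between the LN subsets are not reported for them. Each array is a pool of mice, and p-values measure the spread between pools.

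The reported model held no pairing of replicate numbers, which entered only as the replicate block among the alternatives. Residuals of same-numbered arrays correlated at 0.66, 0.58 and 0.49 in the homeostatic and 0.39, 0.51 and 0.38 in the DEC groups. The labels do not say whether the numbers mark pairs. The LP groups (-0.07) and LN groups (0.39, 0.37 and 0.72) have 2 numbers only, so their residuals mirror each other and pairing is hard to judge. Alternatives were quantile and cyclic loess normalization, an offset of 50, no filter, a filter at the 75th percentile, probe sets averaged or tested singly, only the arrays compared, array weights, a replicate block, leaving out both dim DEC CD25- arrays, and leaving out each array. No scan date was used. Promoter sequences are from RefSeq (GRCm38.p6), found for 4 of the 6 members.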

Additional observations from a re-analysis of the deposited data

Results flagged for a closer look

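Among the 4 DEC CD25- arrays, Pde2a was lowest on replicate 3, at 11.35 on the log2 scale, against 12.04, 12.02 and 12.10 on the others. The gap to the nearest array was 0.889 of the group's range, above Dixon's critical value at the 95% level. Chance gives such a gap in about 1 of 20 groups. The array was also dim and was the one with the Gapdh excess of 6.59 at the 3′ end. The DEC log2 fold change of Pde2a was -0.21 without both dim arrays, against -0.05 with them.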

How the results depend on the processing

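Of 300 member values in the partner comparisons under alternatives, 18 had another sign than the reported value, 8 of them Pde4b and 5 Pde2a in DEC cells, whose reported values were 0.05 and -0.05. Of 270 values between LN subsets, 14 did. Pde4d in LP cells turned to 0.0690 when LP Treg replicate 1 was left out and to 0.0891 when LP Tconv replicate 1 was, the values over single arrays left out running from -0.63 to 0.0891, and Pde8a in DEC cells became -0.0461 with array weights and -0.15 without both dim DEC CD25- arrays. Of 155 values of other called genes, 125 kept their call and 30 lost it.

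Counts of called genes moved most, and the cause was not tested. LP cells had 338 calls, 509 with each probe set by itself, 17 with only the LP arrays, 221 with array weights and 558 without both dim arrays. Homeostatic cells had 220, and 753, 1236 and 436 with only their arrays, array weights and no dim arrays. DEC cells had 62, against 5 with only their arrays and 193 with array weights. LN CD103+Klrg1- over CD103-Klrg1- had 12, 28 after cyclic loess, 20 with the offset, 99 with array weights and 28 without dim arrays. CD103+Klrg1+ over CD103+Klrg1- had 81, 264 with array weights and 134 without dim arrays. CD103+Klrg1+ over CD103-Klrg1- had 263, 407 by single probe sets, 599 with array weights and 397 without dim arrays. With the replicate block the counts in this order were 615, 480, 139, 27, 136 and 453, and every listed gene called without the pairing was called with it too. Listed genes called with the block were 8, 4, 2, 0, 3 and 6 of 74, against 4, 2, 1, 0, 1 and 2 without it. Leaving out 1 array gave 172 to 515, 133 to 173, 19 to 330, 0 to 8, 25 to 48 and 124 to 203. Arrays near the filter carry little signal over background, which limits Vipr1 and Cnga1.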
